A study of Mus musculus with 24 samples.

Results

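The 35 genes described here encode proteins of homologous recombination and of the Fanconi anaemia pathway. They were taken by symbol from the 27368 genes of the deposited count table, where all 35 were found, and all 35 passed the filter on low counts that left 16560 genes to test. In homologous recombination a broken chromosome is mended by copying the sister chromatid: the broken ends are trimmed back, BRCA1, BRCA2 and their partners prepare the trimmed ends for strand exchange, which further proteins such as RAD54 assist, and the joined molecules are undone by the BLM complex or cut by nucleases. At crosslinks between DNA strands the Fanconi core complex and the enzyme UBE2T attach ubiquitin to FANCD2 and FANCI, which pass the lesion on to the same machinery. The sister chromatid exists only after replication, and many of these genes are transcribed mainly in dividing cells, and tumour cells that lack the pathway are sensitive to PARP inhibitors such as olaparib.

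RNA was sequenced from 24 tumours, 3 in each of 8 groups, raised in the flank of C3H females, 6 to 8 weeks old, from SCC7, a transplantable mouse squamous carcinoma line. SCC7 cells with only the empty vector are called NC and those made to overexpress miR-21-5p, a microRNA, are called OE, and about 1000000 cells were injected per mouse. The promoter of the vector, and whether either line was a clone, are not given in the sources used here. Mice were treated once tumours measured about 300 mm3, and the treatments were sham handling, olaparib alone, radiation alone (IR) or radiation with olaparib (IR+olaparib), each in NC and in OE tumours. Radiation was 8 Gy of X-rays to the shielded mouse's tumour on each of 3 days. Olaparib was injected at 50 mg/kg into the abdomen 2 hours ahead of each dose, with a further injection a day after the final one. Tumours are named here by group and identifier. Whether each came from a mouse of its own is not stated, so p-values measure the spread between these tumours.

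Groups were read from the letters in each tumour's identifier. The written labels of treatment and cell type name the same group for 5 tumours and another group for 19. The reading by letters was taken with results of both readings known, so that p-values for radiation are not independent of it, and values under the written labels are given beside the main counts. Total counts ran from 37099055 to 40004502 reads per tumour. NC IR tumour I-739 stood apart from the other irradiated tumours, with 379.8 CPM (counts per 1000000 counts of the library, after TMM scaling) of the proliferation gene Mki67 against 365 to 459 CPM in unirradiated tumours, and 332 CPM of the p53 target Cdkn1a against 603 to 765 CPM in the other 11 irradiated ones. OE IR+olaparib tumour EIO-744 had the lowest Mki67 (21.6 CPM) and a summed level of 7 fibroblast markers of 129153 CPM, where unirradiated tumours had at most 6124 CPM. NC IR tumour I-732 had the highest sum of 9 muscle markers (15061 CPM), and NC sham tumour S-761 the highest sum of 7 T cell markers (334 CPM). The squamous keratin genes Krt5 and Krt14 were near absent, at medians of 0.829 and 1.20 CPM in unirradiated tumours, although 10 squamous and epithelial markers summed to 676 to 1696 CPM there. With radiation that sum was 290 to 1566 CPM, with medians of 1246 CPM without and 849.8 CPM with it, and 1 of the 10 markers was called lower and 2 higher. With radiation 6 of 7 macrophage, 5 of 6 neutrophil, 7 of 9 muscle, 3 of 7 fibroblast and 2 of 5 endothelial markers were called higher, 5 of 7 T cell markers were called lower and none of 4 B cell markers was called. Among all 16560 tested genes 3586 were called higher and 2897 lower. Summed macrophage markers had a median of 5712 CPM without and 11394 CPM with radiation. The part of these cells in the results on the 35 genes was not tested, and in whole tumours fewer cells of a type cannot be told apart from less RNA per cell.

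Promoter sequence was read from RefSeq (build GRCm38.p6) to see what the members share beyond function. Of the 35 genes 26 had a window from 250 bases before to 50 after a listed start site. That site is not always the annotated start of the gene. The windows of Brca2, Fancc, Fancg, Fancm and Slx4 lie wholly inside the annotated gene. The Fancc window, chr13:63431696-63431995, lies within a gene on the minus strand that runs from 63301334 to 63497292. The core of the site bound by E2F factors, which switch on genes of the S phase, was searched on both strands in several spellings. The first spelling was TTCCCGC, the next was TTGGCGC, another was TTCGCGC, and the last of them was TTGCCGC. At least 1 core lay in the windows of 14 of the 26 members (53.8%), against 17.4% of 12925 tested genes with a window and 9.57% of all 32851 windows. The stretches below run from 170 bases before to 30 after the start site used, with the cores in capitals, and hold every core found in the 4 windows. The first 3 belong to genes that were lower after radiation, and the fourth, of Fancg, to a gene whose level hardly differed although a core is present.
Brca1: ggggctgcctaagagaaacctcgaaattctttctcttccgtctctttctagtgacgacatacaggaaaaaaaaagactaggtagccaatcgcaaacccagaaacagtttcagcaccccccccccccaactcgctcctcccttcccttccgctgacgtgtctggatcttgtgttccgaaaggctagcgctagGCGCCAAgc
Fanci: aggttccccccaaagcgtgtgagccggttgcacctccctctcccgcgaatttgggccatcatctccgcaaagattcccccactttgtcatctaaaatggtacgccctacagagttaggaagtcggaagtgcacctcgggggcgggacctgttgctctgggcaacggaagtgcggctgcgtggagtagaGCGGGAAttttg
Ube2t: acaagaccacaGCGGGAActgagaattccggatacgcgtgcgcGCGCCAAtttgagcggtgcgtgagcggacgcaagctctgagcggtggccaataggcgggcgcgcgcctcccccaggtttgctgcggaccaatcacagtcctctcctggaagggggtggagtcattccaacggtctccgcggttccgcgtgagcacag
Fancg: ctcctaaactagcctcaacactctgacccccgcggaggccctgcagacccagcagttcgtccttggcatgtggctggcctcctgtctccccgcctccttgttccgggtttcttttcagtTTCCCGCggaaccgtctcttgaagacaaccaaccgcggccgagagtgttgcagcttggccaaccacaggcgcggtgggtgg
The Brca1 stretch lies at chr11:101551926-101552125 on the minus strand, with its core written GCGCCAA 22 bases into the transcript. The Fanci stretch lies at chr7:79392168-79392367 on the plus strand, with GCGGGAA 19 bases after the start site used. The Ube2t stretch (chr1:134962395-134962594, plus strand) holds GCGGGAA from position -159 and GCGCCAA from position -127 against the start. In Fancg (chr4:43010272-43010471, minus strand) the core TTCCCGC begins at position -51 against the start site used. The annotated gene spans 43002337 to 43010567, so this core lies inside it and after its annotated start. Other motifs of cell cycle promoters were also searched on both strands: CCAAT was found in 17 of 26 members (65.4%, against 42.4% of tested genes) and TTTGAA, the core of the CHR element, in 3 (11.5%, against 15.5%). A match is a description of the letters and shows no binding.

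Most of the set was lower after radiation. Averaged over NC and OE and over tumours with and without olaparib, 27 of 35 genes were called lower and none higher in 12 irradiated against 12 unirradiated tumours (edgeR quasi-likelihood test, Benjamini-Hochberg adjusted p below 0.05), where 17.5% of all tested genes were called lower. All 35 log2 fold changes were below 0, with a median of -0.83, against 0.04 over all tested genes. At an unadjusted p below 0.05 there were 29 lower and 0 higher members, and DESeq2 called 28. Of all 16560 tested genes 8056 had such a p in either direction, and DESeq2 called 7059. Leaving out each tumour in turn gave 25 to 28 lower members, with 28 at a median of -0.93 without NC IR tumour I-739 and 28 at a median of -0.74 without OE IR+olaparib tumour EIO-744. Under the written labels edgeR called none of the 35, where it called 0.00604% of all genes lower, and the median was -0.40.

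**Figure D1:**
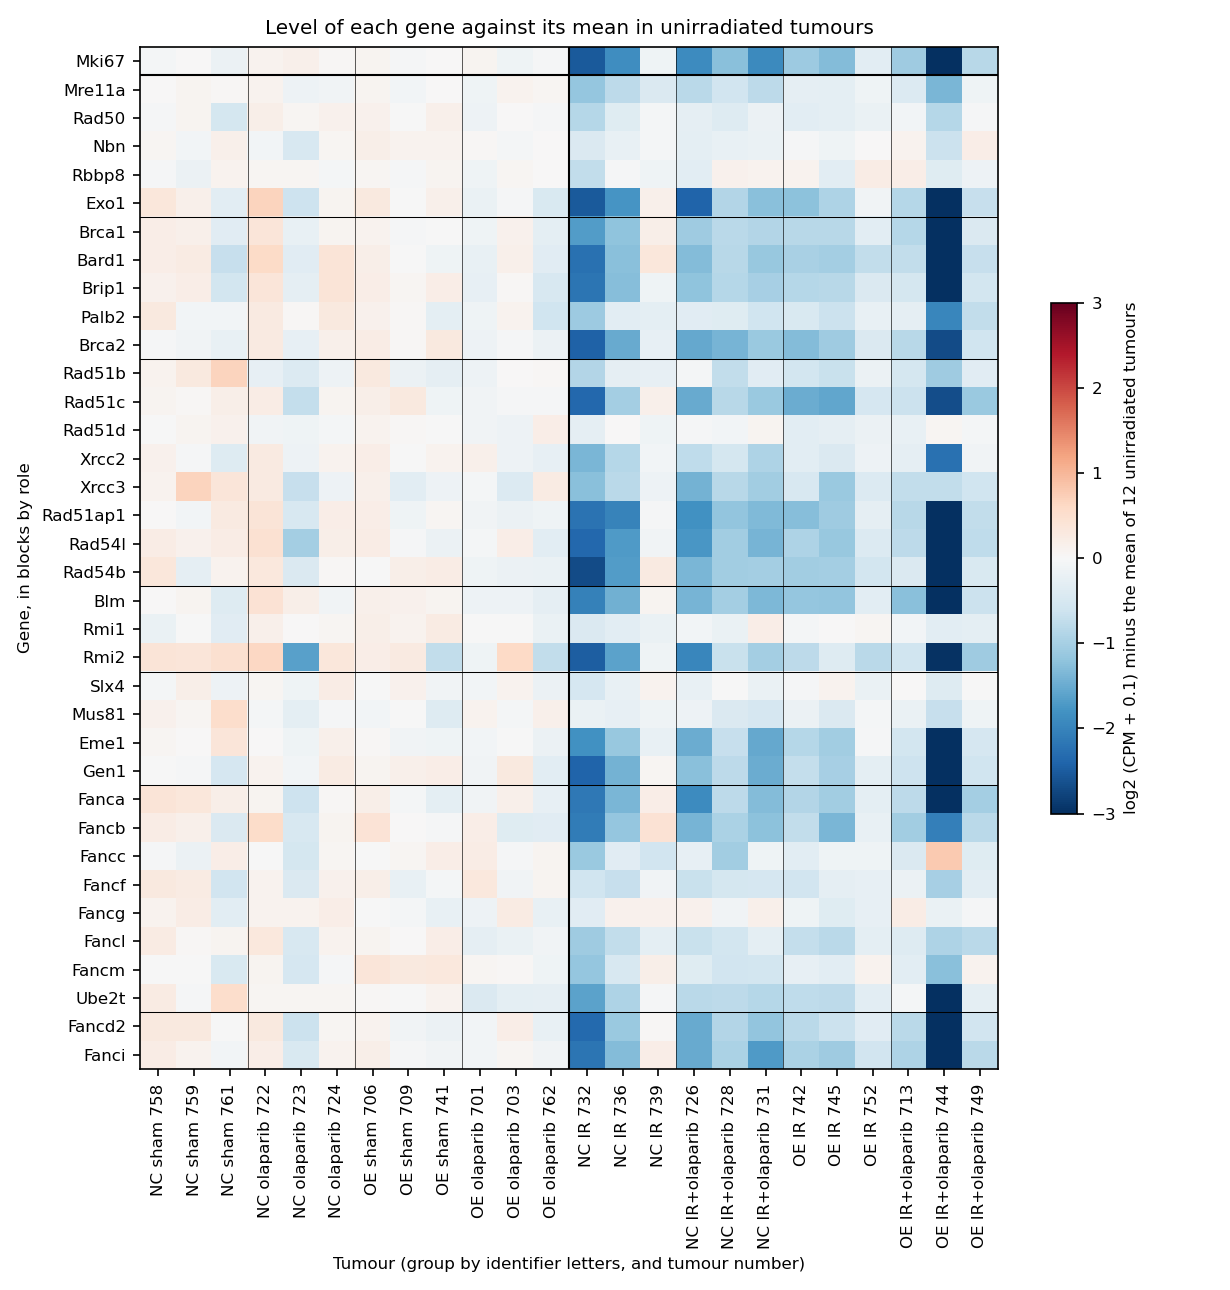
Level of Mki67 (top row) and of the 35 genes in each of 24 tumours, as log2(CPM + 0.1) minus the mean of the 12 unirradiated tumours (left of the heavy vertical line); thin lines separate the groups of 3 and the blocks of genes by role, and colours saturate at 3. Most rows are blue in the irradiated tumours, most strongly in OE IR+olaparib tumour EIO-744 and NC IR tumour I-732, while NC IR tumour I-739 is close to the unirradiated tumours.

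Among genes that sense and trim broken ends, 3 of 5 were called lower. Mre11a, the nuclease of the complex that binds the ends, was at 47.4 CPM in the lowest, 53.6 in the median and 56.6 in the highest unirradiated tumour, and at 20.3, 37.1 and 48.2 CPM in irradiated ones. The ranges overlapped slightly, since 10 of 12 irradiated tumours lay below every unirradiated one, and OE IR+olaparib tumour EIO-744 was lowest. The log2 fold change was -0.57 ± 0.11 (SE, edgeR adjusted p = 0.000844). By group Mre11a averaged 54.4 ± 1.45 CPM in NC sham and 30.9 ± 7.89 CPM in NC IR tumours (SD, n = 3 each), and 52.7 ± 3.23 CPM in OE sham and 44.9 ± 2.82 CPM in OE IR tumours. With olaparib these means were 50.9 ± 5.02 and 32.0 ± 2.78 CPM in NC and 53.1 ± 4.29 and 35.9 ± 14.2 CPM in OE tumours. Every irradiated group thus averaged below its unirradiated counterpart. Exo1, a nuclease that extends the trimmed stretch, ran from 11.9 through 18.8 to 29.1 CPM without radiation and from 0.633 through 8.71 to 20.4 CPM with it (-1.11 ± 0.35, edgeR adjusted p = 0.0195). The highest irradiated value of Exo1 was that of NC IR tumour I-739, and 10 of 12 irradiated tumours lay below every unirradiated one. Rad50, the ATPase partner of MRE11, had medians of 57.4 and 46.4 CPM and changed least of the called genes here (-0.31 ± 0.10, edgeR adjusted p = 0.0196) and lost its call without NC sham tumour S-759 (highest adjusted p over the left-out tumours 0.0510). Nbn, the third subunit of that complex, had medians of 36.1 and 31.1 CPM (-0.15 ± 0.08, edgeR adjusted p = 0.154) and Rbbp8, which encodes the resection factor CtIP, medians of 31.5 and 29.0 CPM (-0.09 ± 0.09, edgeR adjusted p = 0.464). For Nbn 1 of 12 irradiated tumours lay below and 1 above every unirradiated one. Rbbp8 was more spread out with radiation, from 18.3 to 36.2 CPM against 27.4 to 33.1 CPM, with 4 irradiated tumours below and 4 above the unirradiated range.

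All 5 genes of the BRCA complexes were called lower. Brca2, which acts at the trimmed ends before strand exchange, had 24.3, 28.1 and 35.5 CPM in the lowest, median and highest unirradiated tumour and 4.37, 12.4 and 24.2 CPM in irradiated ones. It was the only member whose 12 irradiated tumours all lay below every unirradiated tumour, by a small margin, since NC IR tumour I-739 had 24.2 CPM. Without that tumour the highest irradiated value was 21.4 CPM, and Rad54b and Fanci then showed no overlap either. How many of all tested genes showed no overlap was not counted, so these counts have no background. The log2 fold change of Brca2 was -1.13 ± 0.22 (edgeR adjusted p = 0.00109). Its group means with and without radiation were 13.2 ± 9.84 and 26.4 ± 1.80 CPM in NC and 15.6 ± 5.11 and 33.0 ± 3.01 CPM in OE tumours (SD, n = 3 each). Under olaparib they were 11.3 ± 1.74 and 30.2 ± 5.31 CPM in NC and 13.1 ± 7.71 and 26.5 ± 1.29 CPM in OE tumours. Palb2, which bridges BRCA1 and BRCA2, ran from 5.07 through 7.92 to 9.51 CPM without and from 1.90 through 5.79 to 6.60 CPM with radiation (-0.57 ± 0.16, edgeR adjusted p = 0.0105). Brca1 had 40.7, 52.9 and 65.9 CPM without and 2.66, 28.8 and 58.2 CPM with radiation (-0.86 ± 0.28, edgeR adjusted p = 0.0206). Its highest irradiated value again came from NC IR tumour I-739, and the next was 41.5 CPM. Bard1, the ubiquitin ligase partner of BRCA1, ran from 12.0 through 20.5 to 28.8 CPM and from 0.792 through 9.67 to 24.6 CPM (-1.01 ± 0.32). The helicase gene Brip1 ran from 17.9 through 28.1 to 34.7 CPM and from 1.30 through 14.6 to 24.3 CPM (-0.96 ± 0.29). Both overlapped between the groups, with 10 and 8 of 12 irradiated tumours below every unirradiated one.

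Of 8 genes that assist strand exchange 7 were called lower. Xrcc3, at a low level, ran from 1.76 through 2.96 to 4.71 CPM without and from 1.03 through 1.66 to 2.60 CPM with radiation (-0.83 ± 0.17, edgeR adjusted p = 0.00139). Rad51ap1, whose product promotes strand exchange, ran from 12.3 through 16.8 to 22.4 CPM and from 1.81 through 7.29 to 16.7 CPM (-1.15 ± 0.27, edgeR adjusted p = 0.00312). In both genes the groups overlapped, with 8 and 10 of 12 irradiated tumours below the lowest unirradiated one. The motor protein gene Rad54l had the largest difference of the 35 at -1.17 ± 0.29, with medians of 26.1 and 11.0 CPM, and ran down to 1.55 CPM. Its relative Rad54b ran from 4.92 through 6.70 to 8.52 CPM without and from 0.285 through 3.20 to 8.11 CPM with radiation (-0.99 ± 0.34), and 11 of 12 irradiated tumours lay below every unirradiated one. Rad54b lost its call without any 1 of 5 tumours, with a highest adjusted p of 0.0569. The others of these genes did not move alike: Rad51c (medians of 6.16 and 2.69 CPM) was at -1.10 ± 0.26, Xrcc2 (19.8 and 13.8 CPM) at -0.59 ± 0.19 and Rad51b (5.72 and 4.44 CPM) at -0.48 ± 0.13, all called lower. Rad51d, which binds XRCC2, was at -0.12 ± 0.06 (edgeR adjusted p = 0.125), with 18.0, 20.0 and 23.2 CPM without and 16.2, 18.7 and 21.4 CPM with radiation.

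In the BLM complex, which dissolves joined molecules, 2 of 3 genes were called lower. The helicase gene Blm had 13.9, 18.6 and 24.6 CPM without and 1.46, 7.75 and 19.2 CPM with radiation (-1.10 ± 0.26, edgeR adjusted p = 0.00348). Rmi2 ran from 2.49 through 9.71 to 12.1 CPM and from 0.918 through 4.10 to 7.18 CPM (-1.16 ± 0.32, edgeR adjusted p = 0.00904), with wide overlap. The 2.49 CPM was that of NC olaparib tumour O-723, and OE sham tumour ES-741 and OE olaparib tumour EO-762 each had 4.63 CPM. Rmi1, the scaffold that holds RMI2, ran from 13.1 through 16.6 to 19.7 CPM and from 12.3 through 15.1 to 19.0 CPM and was not called (-0.14 ± 0.07, edgeR adjusted p = 0.0900).

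Of the 4 nuclease genes 3 were called lower. Gen1, a resolvase, ran from 11.3 through 16.7 to 19.8 CPM and from 0.760 through 8.71 to 16.9 CPM (-0.97 ± 0.30, edgeR adjusted p = 0.0177). Eme1, the partner of MUS81, ran from 13.8 through 15.5 to 20.1 CPM and from 0.443 through 8.01 to 15.1 CPM (-0.95 ± 0.31, edgeR adjusted p = 0.0220). Mus81 itself moved much less, from 15.3, 19.8 and 29.0 CPM to 12.4, 17.6 and 19.3 CPM (-0.28 ± 0.08, edgeR adjusted p = 0.0160). For Eme1 11 of 12 irradiated tumours lay below every unirradiated one, and for Mus81 it was 4. The nuclease scaffold gene Slx4 had medians of 32.2 and 30.2 CPM and was not called (-0.13 ± 0.08, edgeR adjusted p = 0.194).

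In the Fanconi pathway 5 of 8 genes of the core complex, its anchor and the conjugating enzyme were called lower. Both genes of the ubiquitinated pair were called lower as well. Fancl, the ubiquitin ligase subunit, had the smallest p of the 35 genes (-0.62 ± 0.11, edgeR adjusted p = 0.000443), with 12.9, 18.8 and 22.3 CPM without and 8.56, 11.1 and 14.8 CPM with radiation. Fancb, a subunit of the core complex, ran from 5.05 through 7.25 to 10.4 CPM and from 1.57 through 3.23 to 9.47 CPM (-0.96 ± 0.25, edgeR adjusted p = 0.00583). Both genes overlapped between the groups, Fancb through NC IR tumour I-739 (9.47 CPM) and OE IR tumour EI-752 (6.05 CPM). Fanca (medians of 18.9 and 8.77 CPM, -1.05 ± 0.27) and Fancf (8.12 and 5.27 CPM, -0.48 ± 0.13), further core subunits, were also called. Ube2t, the conjugating enzyme, had medians of 15.0 and 8.42 CPM (-0.72 ± 0.27, edgeR adjusted p = 0.0404). That call held in 5 of 24 repeats that each left out 1 tumour, with a highest adjusted p of 0.0730. Fancd2 ran from 14.4 through 22.7 to 27.5 CPM and from 0.602 through 12.4 to 22.8 CPM (-0.98 ± 0.32, edgeR adjusted p = 0.0220). Its partner Fanci ran from 15.7 through 21.9 to 25.4 CPM and from 1.14 through 10.7 to 24.8 CPM (-1.10 ± 0.28, edgeR adjusted p = 0.00621), and 11 of its 12 irradiated values were below all unirradiated ones. Among the rest, Fancm, the DNA translocase that anchors the complex, had medians of 20.0 and 15.5 CPM (-0.36 ± 0.15, edgeR adjusted p = 0.0591), and the subunit genes Fancc and Fancg were at -0.30 ± 0.15 and -0.05 ± 0.09. Fancg ran from 9.78 through 12.7 to 14.5 CPM without and from 9.50 through 11.7 to 14.2 CPM with radiation. Fancc ran from 7.28 through 10.7 to 12.3 CPM and from 4.79 through 8.39 to 18.1 CPM, and its highest value was that of OE IR+olaparib tumour EIO-744, in which 26 of the 35 members had their lowest value of all 24 tumours.

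**Figure D2:**
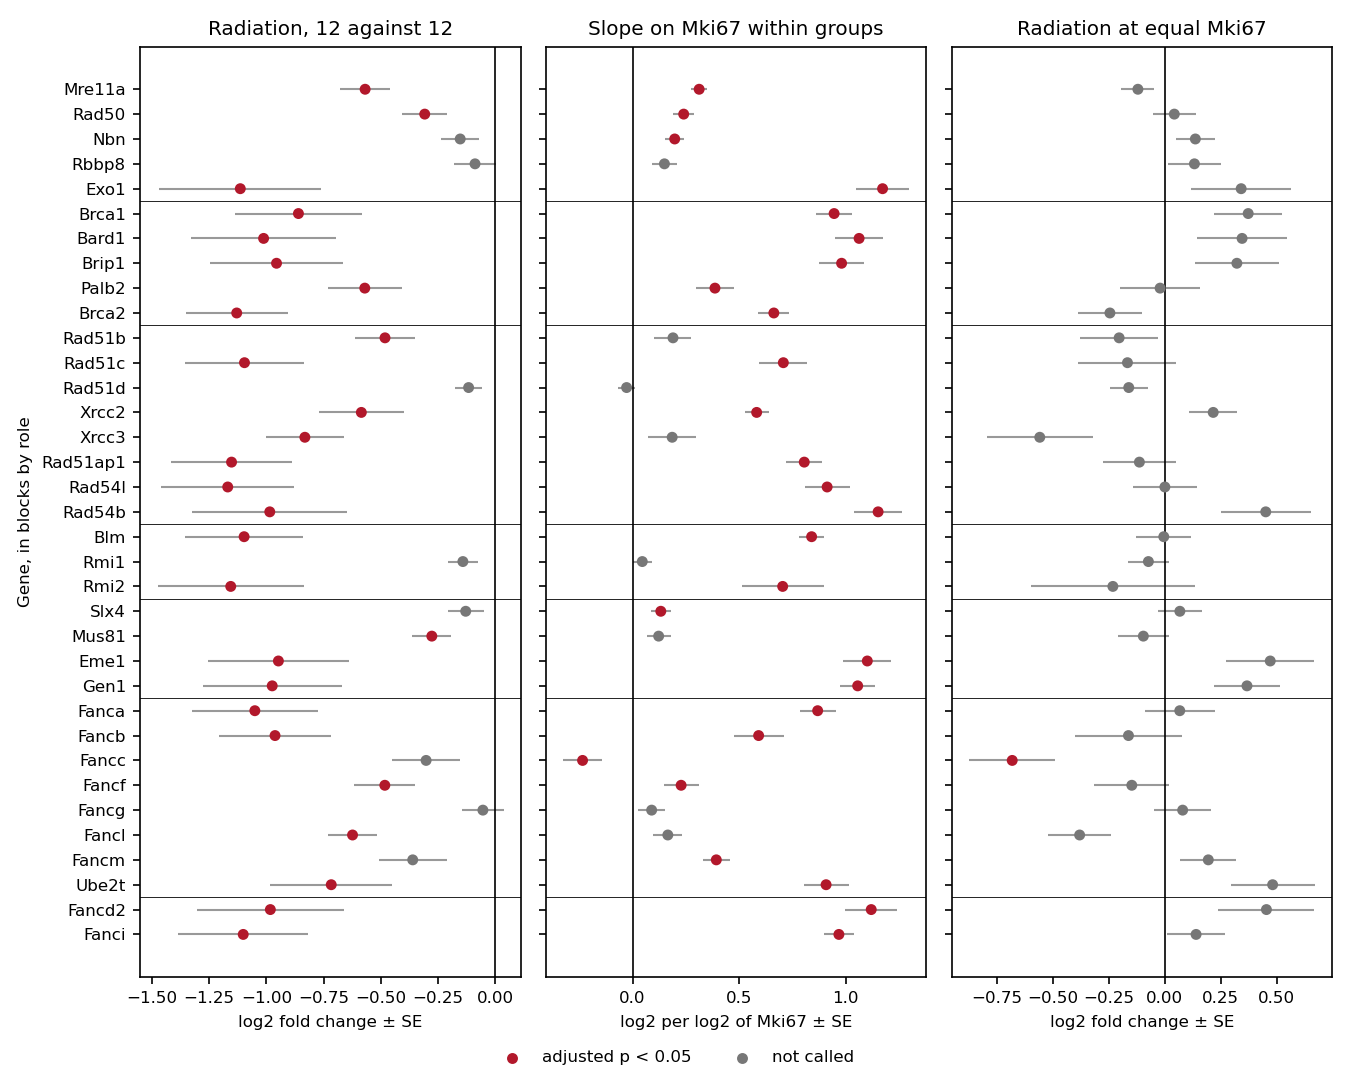
Values of the 35 genes in blocks by role, as points with standard errors: log2 fold change with radiation (left), slope of each gene on Mki67 within groups (middle) and log2 fold change with radiation at equal Mki67 (right); red marks edgeR adjusted p below 0.05. In the left panel 27 genes are called below 0, in the middle panel 26 are called above 0 and 1, Fancc, below, and in the right panel Fancc alone is called.

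Within single settings, each 3 tumours against 3, few members were called. In NC tumours without olaparib 3 were called lower, Mre11a at -0.81 ± 0.22, Fancl at -0.80 ± 0.22 and Xrcc3 at -1.11 ± 0.34, where 5.40% of all genes were. That count was 15 without NC IR tumour I-739 and 11 without OE IR+olaparib tumour EIO-744. It was 0 without any 1 of 6 tumours, namely S-758, S-759, S-761, I-732, I-736 and EI-742, and 1 without EI-745, EO-701 or IO-731. In the other settings edgeR called none of the 35 in the fit to all 24 tumours. In the compared groups alone it called 14 lower in OE without olaparib and 16 in NC with olaparib, and without 3 tumours of unlike composition (I-732, S-761 and EIO-744) 6 and 22. Among all genes the fit to all 24 tumours called 0.0664% lower in OE without olaparib, 0.634% in NC with olaparib and 1.37% in OE with olaparib. These shares and the 5.40% above belong to that fit alone, so they are no background for counts from other fits. Leaving out the 3 tumours of unlike composition, edgeR called 3.42% of all genes lower in OE without olaparib and 9.76% in NC with olaparib. Leaving out EIO-744 alone, it called 12.6% lower in NC without olaparib and 6.28% in NC with olaparib. No such shares are given here for the compared groups alone or the fit without I-739, so those counts have no background. At an unadjusted p below 0.05 the settings other than NC without olaparib gave 4, 12 and 12 lower members, and DESeq2 called 1, 5 and 0. Of 16560 tested genes 2447, 3655 and 4681 had such a p in either direction, and DESeq2 called 644, 1428 and 2404. Without OE IR+olaparib tumour EIO-744, 13 members were called lower in NC with olaparib, and 4 without NC IR tumour I-739. Without OE IR+olaparib tumour EIO-749, 2 were called lower in OE with olaparib, where 6.15% of all genes were. The medians of the 35 were -0.77 and -0.57 without olaparib in NC and OE, and -0.98 and -0.67 with it. Single tumours moved these medians, to -1.50 without I-739 and -0.46 without I-732 in NC without olaparib, and to -0.41 without EIO-744 and -1.06 without EIO-713 in OE with olaparib. The difference in the radiation effect between OE and NC tumours, tested as an interaction, was called for none of the 35 (0.00604% of all genes), and that between tumours with and without olaparib for none (0% of all genes). At an unadjusted p below 0.05 these interactions gave 0 and 1 members, and DESeq2 called 0 members in both. Of all 16560 tested genes 1882 and 588 had such a p in either direction, and DESeq2 called 236 and 7.

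Neither olaparib nor miR-21-5p overexpression gave a called member. Olaparib, averaged over 12 tumours against 12, gave edgeR calls in 0% of all genes and in none of the 35, with a median of -0.16 over the members. That median was -0.03 without NC IR tumour I-739, -0.07 without OE IR+olaparib tumour EIO-744 and -0.25 without either NC IR tumour I-732 or OE IR+olaparib tumour EIO-749. Without radiation (6 against 6) and added to radiation (6 against 6) the count was again 0, with 0% of all genes called in each. None of the 35 had an unadjusted p below 0.05 in these 3 comparisons, and DESeq2 called none. Of all 16560 tested genes 1270, 486 and 1457 had such a p in either direction, and DESeq2 called 1, 5 and 1. OE minus NC tumours (12 against 12) had a median of 0.01 (-0.06 to 0.16 with 1 tumour left out) and no called member, where 0.453% of all genes were called, and DESeq2 called none. Of all 16560 tested genes 2565 had an unadjusted p below 0.05 between OE and NC, and DESeq2 called 628. Among the 35 the only such p was that of Fancc (0.32 ± 0.15 higher in OE, edgeR adjusted p = 0.306), which was 18.1 CPM in OE IR+olaparib tumour EIO-744. Without that tumour Mre11a was called higher in OE.

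The members were next set against Mki67, a gene transcribed in dividing cells, in each tumour. Mki67 was at 365, 419 and 459 CPM in the lowest, median and highest unirradiated tumour and at 21.6, 171 and 379.8 CPM in irradiated ones (-1.27 ± 0.29, edgeR adjusted p = 0.00303). Within groups it varied little without radiation, by 0.11 to 0.21 on the log2 scale, and by 0.67 to 3.43 among the irradiated groups. A slope fitted within the 8 groups, as log2 of the gene per log2 of Mki67, was called above 0 for 26 of 35 members and below 0 for 1, where 19.2% of all genes were called above 0. The median slope was 0.59 over the members and -0.02 over all genes. The counts above 0 were 20 to 30 with each tumour left out, with the 20 falling to the fit without OE IR+olaparib tumour EIO-744, 25 in irradiated tumours alone and 29 with the written groups. Of all genes 8.54% were called above 0 without EIO-744 and 18.9% with the written groups. For the 30 and the 25 no such share is given here, so they have no background. In unirradiated tumours alone no slope was called by edgeR.

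The steepest slopes over all 24 tumours belonged to Exo1 (1.17 ± 0.12), Rad54b (1.15 ± 0.11), Fancd2 (1.12 ± 0.12), Eme1 (1.10 ± 0.11) and Bard1 (1.06 ± 0.11). Without OE IR+olaparib tumour EIO-744 the steepest were Exo1 (1.10), Rad54b (1.04) and Fancb (1.03), while Bard1 was at 0.90, Fancd2 at 0.80 and Eme1 at 0.72, all 6 still called. A slope of 1 means that the gene and Mki67 changed by the same factor. Blm (0.84 ± 0.06, edgeR adjusted p = 1.07e-08), Fanci (0.97 ± 0.07, adjusted p = 2.28e-08) and Gen1 (1.06 ± 0.08, adjusted p = 4.87e-08) had the smallest p. Blm was at 3.71% to 5.54% of Mki67 in unirradiated and 3.79% to 6.75% in irradiated tumours, nearly the same range although both genes spanned more than 10 fold across tumours. That span rested on OE IR+olaparib tumour EIO-744, with 1.46 CPM of Blm and 21.6 CPM of Mki67. The next lowest values were 4.36 and 72.4 CPM, both in NC IR tumour I-732. For Brca2 the slope was 0.66 ± 0.07 and for Mre11a 0.31 ± 0.04, so that these fell less than Mki67 did from tumour to tumour. At the other end were Fancc (-0.23 ± 0.09, edgeR adjusted p = 0.0458), Rad51d (-0.03 ± 0.04), Rmi1 (0.05 ± 0.04), Fancg (0.09 ± 0.06) and Mus81 (0.12 ± 0.06). Fancg made up 2.49% to 3.86% of Mki67 in unirradiated and 3.08% to 49.3% in irradiated tumours. The 49.3% was that of OE IR+olaparib tumour EIO-744, and the next highest was 13.3% in NC IR tumour I-732. The slope of Fancc rested on OE IR+olaparib tumour EIO-744 and was 0.02 without it.

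**Figure D3:**
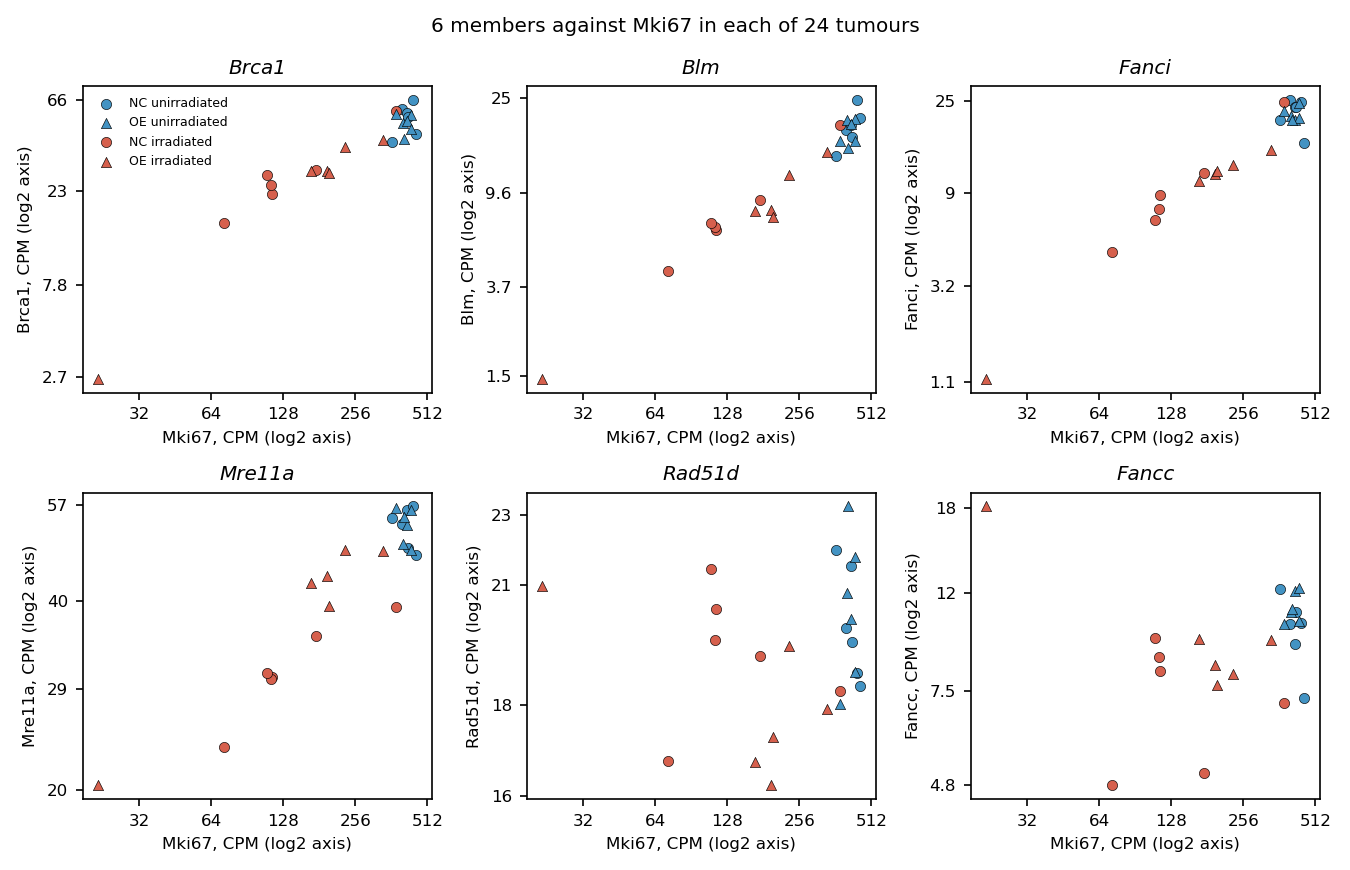
CPM of 6 members against CPM of Mki67 in each of 24 tumours, both on log2 axes; blue points are unirradiated and red points irradiated tumours, circles NC and triangles OE. Brca1, Blm and Fanci descend with Mki67 down to OE IR+olaparib tumour EIO-744 at 21.6 CPM of Mki67, Mre11a descends less, and Rad51d and Fancc show no such line.

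Compared at equal Mki67, with log2 Mki67 as a covariate, radiation was left with 1 called member. The median of the 35 was 0.04, with 16 below and 19 above 0. Fancc was called lower (-0.68 ± 0.19, edgeR adjusted p = 0.0411), where 2.80% of all genes were called lower and 4.05% higher, and no member was called higher. The call of Fancc was lost with any 1 of 17 tumours left out, OE IR+olaparib tumour EIO-744 among them. Without NC olaparib tumour O-723 Fancl was called lower as well, without NC IR tumour I-739 Eme1 and Ube2t were called higher, and without OE olaparib tumour EO-703 Gen1 was. At an unadjusted p below 0.05 there were 3 lower and 6 higher members, and DESeq2 called 1. Of all 16559 tested genes 3979 had such a p in either direction, and DESeq2 called 2117. With the mean of 20 mitosis genes in place of Mki67, 6 members were called lower, namely Blm, Brca2, Fancc, Fancl, Mre11a and Xrcc3, and the median was -0.15. The shares of 2.80% and 4.05% belong to the fit with Mki67 and every tumour. They are no background for this count of 6 or for the calls with 1 tumour left out. Mki67 was measured in the same libraries and was itself lower after radiation, so this comparison is conditional on it. As a ratio to Mki67, 19 of 35 members were higher after radiation, with a median of 0.62, where 94.5% of all genes were higher and the median over all genes was 1.88. The 16 that were not called include Exo1 (0.08 ± 0.24), Rad54l (0.13 ± 0.23), Fanci (0.19 ± 0.21) and Rad51ap1 (0.19 ± 0.23).

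In 9 of 12 pairs of partners the proportion of 1 gene to the other differed with radiation. Ratios of CPM between 12 pairs of partners were compared between 12 irradiated and 12 unirradiated tumours by two-sided permutation tests with 100000 draws, with p-values adjusted over the 12 pairs. The pairs were chosen after the values of their genes had been seen. Their p-values, adjusted over the 12 pairs alone, do not account for that choice and are given as description. Pairs of other genes were not compared, so the count of 9 has no background. Such a ratio within a tumour does not depend on the scaling of libraries and shows unequal change, not which partner moved. Blm per Rmi1 was 0.972, 1.07 and 1.34 in the lowest, median and highest unirradiated tumour and 0.110, 0.488 and 1.32 in irradiated ones. In 11 of 12 irradiated tumours, all but NC IR tumour I-739, the ratio was below every unirradiated one, and the difference was -1.15 on the log2 scale (permutation p = 4e-05, adjusted p = 0.00024). Eme1 per Mus81 ran from 0.616 through 0.772 to 0.929 and from 0.0356 through 0.491 to 0.780 (-0.98, permutation p = 0.00012, adjusted p = 0.00048). Without OE IR+olaparib tumour EIO-744 this difference was -0.66 (permutation p = 0.00024).

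Other pairs differed as well. Mre11a per Nbn ran from 1.32 through 1.44 to 1.88 and from 0.907 through 1.11 to 1.37 (-0.44, permutation p = 4e-05, adjusted p = 0.00024), and Mre11a per Rad50 was lower by a smaller amount (-0.28, adjusted p = 0.00939 in the same permutation test). Brca2 per Palb2 differed by -0.66 (permutation test, adjusted p = 0.00204), Rmi2 per Rmi1 by -1.09 (adjusted p = 0.00584), Rad51c per Rad51b by -0.76 (adjusted p = 0.00312) and Xrcc2 per Rad51d by -0.56 (adjusted p = 0.0151). Brca1 per Bard1 was the one pair with a higher ratio past the threshold, by 0.19 (permutation test, adjusted p = 0.0357), and passed 0.05 unadjusted in neither the fit without NC IR tumour I-732 (highest p 0.0533) nor that without NC olaparib tumour O-724. For Fancd2 per Fanci the difference was 0.05 (adjusted p = 0.703), with 0.91 to 1.17 in unirradiated and 0.53 to 1.47 in irradiated tumours. For Ube2t per Fancl it was -0.31 (adjusted p = 0.355) and for Rad51c per Xrcc3 -0.42 (adjusted p = 0.0647), neither past the threshold. Without OE IR+olaparib tumour EIO-744 Fancd2 per Fanci was 0.15 higher (unadjusted permutation p = 0.0473), and Xrcc2 per Rad51d differed by -0.40. Under the written labels Blm per Rmi1 differed by -0.77 (unadjusted permutation p = 0.0161), Eme1 per Mus81 by -0.76 (p = 0.0178) and Mre11a per Nbn by -0.27 (p = 0.0217), and Mre11a per Rad50 also passed (p = 0.0067). The other 5 of the 9 pairs did not pass under those labels even unadjusted in the permutation test, with p = 0.282 for Rmi2 per Rmi1, 0.888 for Brca1 per Bard1, 0.0630 for Brca2 per Palb2, 0.112 for Rad51c per Rad51b and 0.0657 for Xrcc2 per Rad51d.

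**Figure D4:**
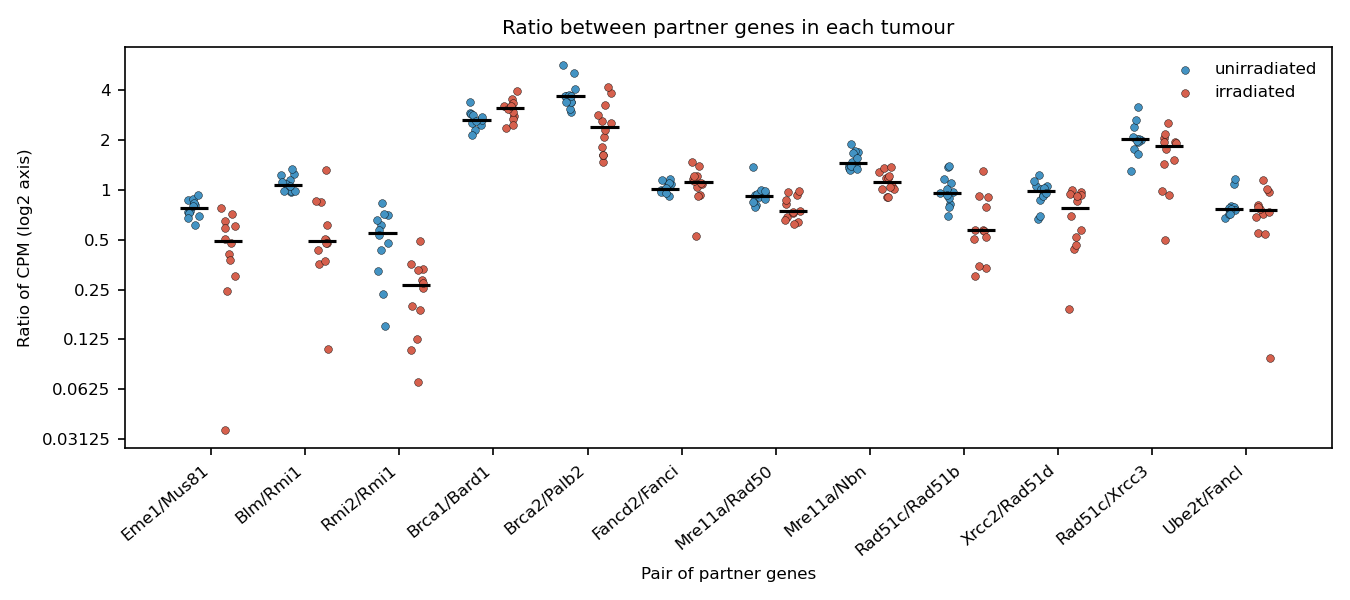
Ratio of CPM between 12 pairs of partner genes on a log2 axis, with each tumour as a point (blue unirradiated, red irradiated) and medians as black bars. Blm/Rmi1, Eme1/Mus81 and Mre11a/Nbn lie lower in irradiated tumours, with medians of 0.488, 0.491 and 1.11 against 1.07, 0.772 and 1.44, while Fancd2/Fanci has medians of 1.12 and 1.01.

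Other genes of the same pathways were also lower after radiation, less uniformly. Of 48 symbols listed, some of them alternative names, 44 genes were in the table and tested, of which 24 were called lower and none higher, with a median of -0.25. Those with the smallest p were Usp1, whose product removes the ubiquitin from FANCD2 (-0.77 ± 0.11, edgeR adjusted p = 0.000138), and the single-strand binding genes Rpa2 (-0.89 ± 0.14, edgeR adjusted p = 0.000179) and Rpa3 (-0.68 ± 0.12, edgeR adjusted p = 0.000367). In comparison, 15 of 20 mitosis genes and 20 of 20 replication genes were called lower, with medians of -0.96 and -0.94, and all 40 had a called positive slope on Mki67. Among all tested genes 17.5% were called lower, and 19.2% had a called positive slope.

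Members with and without an E2F core in the promoter window were set side by side as a description. The 14 with a core had a median log2 fold change of -0.96 with radiation, 11 of them called lower, and a median slope on Mki67 of 0.76. The 12 without had medians of -0.60 and 0.25, with 10 called lower. Fancg, Rmi1 and Fancm were the members with a core that were not called, and Fanca, Gen1, Eme1 and Rad54l moved strongly without one. For Brca2, Fancc, Fancg, Fancm and Slx4 this split does not cover sequence before the annotated start, since their windows lie inside the gene.

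Per kilobase of the longest GENCODE transcript, unirradiated levels of the 35 ranged from 1.25 CPM per kb (Xrcc3) to 13.9 CPM per kb (Nbn), against 41.4 CPM per kb for Mki67. Rad50 (11.0 CPM per kb), Mus81 (9.86) and Mre11a (9.32) followed Nbn, and Rad51c (1.53) and Palb2 (2.08) came next to Xrcc3. Exons of several members overlap those of a neighbour, and the strand setting of the counting is not given in the sources used here, so their counts are uncertain. The largest share was 35.8% of the exonic bases of Rad54b, shared with Fsbp on the same strand. Fancc shared 16.4% with an antisense gene, Fanci 16.0% with Polg, Rad54l 15.4% with Lrrc41, Fancf 15.0% with Gas2, Fancl 13.7% with Vrk2 and Fanca 10.5% with Zfp276, all on opposite strands.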

How the data were processed

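Whole tumours were profiled by RNA sequencing after TRIzol extraction and VAHTS Universal V5 library preparation, per the labels. Per the submitters' processing notes the reads passed through fastp, HISAT2 and HTSeq on mm10; versions, annotation and strand setting are not given in the sources used here. The table deposited by the authors holds raw counts per gene for 24 tumours, with whole numbers in every column, and no 2 tumours of a group were copies (lowest chi-square per gene 13.6). Counting reads without molecular identifiers leaves replicate tumours to set the precision, at 37099055 to 40004502 reads each.

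The 35 members, the gene lists, the roles and the tests were chosen with earlier results of these data known. The tests of edgeR 4.0.16 (R 4.3.3) were quasi-likelihood F-tests after filterByExpr and TMM scaling, fitted to all 24 tumours in 8 groups of 3, and p-values were adjusted by Benjamini-Hochberg over all 16560 tested genes (16559 where Mki67 was a covariate or offset). A gene was called at an adjusted p below 0.05. There were 14 comparisons: 11 group contrasts, the slope on log2 CPM of Mki67 (prior count 0.5) within groups, radiation with that covariate, and radiation with Mki67 as an offset. All 35 members are given by role; fullest values go to the up to 2 of each role with the smallest p for radiation, to members called in a comparison other than radiation, and to the 5 smallest and 5 largest slopes, and of the other pathway genes up to 3 lower and 3 higher with the smallest p are named. Levels are TMM-scaled CPM. Replicate numbers are unique to 1 tumour and pair none. Ratios of partners used permutation tests in SciPy 1.17.1. Alternatives were DESeq2 1.42.0 (size factors and test), no filter, compared groups alone, the written labels, each tumour left out, 3 tumours of unlike composition left out, 20 mitosis genes or a prior count of 5 for Mki67, and slopes in irradiated or unirradiated tumours alone; those for the ratios were added after seeing the data. Promoter sequences are from RefSeq (GRCm38.p6) and transcript lengths and exon overlaps from GENCODE M21, used in place of RefSeq transcripts. The radiation average and the slope on Mki67 were tested on simulated data, and the other comparisons and the ratio tests were not.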

Additional observations from a re-analysis of the deposited data

How the results depend on the processing

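The count of members lower with radiation over the 4 settings stayed within 1.5 times under the alternatives run, except with the written labels (0 called, with Fancc at 0.015 and Fancg at 0.133). It was 25 to 28 with 1 tumour left out. In NC without olaparib it was 0 with no filter, the written labels, the compared groups alone or 3 tumours of unlike composition left out, and 0 to 15 with 1 left out. In OE without olaparib it was 6 without the 3 tumours, 14 in the compared groups alone, 1 by DESeq2 and 0 with any 1 left out. In NC with olaparib these were 22, 16 and 5, and 0 to 13 with 1 left out, and in OE with olaparib 0 to 2. Leaving out the 3 tumours, 3.42% of all genes were called lower in OE without olaparib and 9.76% in NC with olaparib. Members higher in OE than NC numbered 0 to 1.

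The 1 negative slope on Mki67 became 0 with no filter, the written labels, without the 3 tumours, and in irradiated or unirradiated tumours alone, and was 0 to 1 with 1 left out. Positive slopes numbered 20 to 30 with 1 left out and 0 in unirradiated tumours alone. The 20 came without OE IR+olaparib tumour EIO-744, where 8.54% of all genes had a called positive slope. At equal Mki67 the members lower were 0 with no filter, the written labels or without the 3 tumours, 6 with the mitosis list, and 0 to 2 with 1 left out, where 0 to 2 were higher. No share of all genes is given here for the mitosis list or with 1 left out, so these counts have no background. Relative to Mki67, 18 to 20 were higher.

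In unirradiated tumours alone, where Mki67 hardly varied, slopes on the other side of 0 were Mre11a -0.076, Nbn -0.458, Rbbp8 -0.593, Palb2 -0.355, Rad51b -0.766, Rad51c -0.825, Rad51d 0.140, Rad51ap1 -0.603, Rad54l -0.946, Rad54b -0.703, Rmi2 -2.532, Mus81 -0.832, Eme1 -0.872, Fanca -0.238, Fancl -0.253, Ube2t -1.155 and Fancd2 -0.020. The slope of Rad51d was 0.002 with no filter, 0.001 without the 3 tumours and -0.050 to 0.032 with 1 left out, that of Fancc -0.323 to 0.021 with 1 left out, and that of Fancg -0.044 without the 3 tumours. With the written labels the ratio of Brca1 to Bard1 was -0.013 and that of Fancd2 to Fanci -0.014, and without the 3 tumours that of Ube2t to Fancl was 0.034. The cause was not tested. No paired analysis was possible because each tumour number belongs to 1 tumour.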
